A study of Homo sapiens with 2 samples.

Results

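The fibroblast growth factor (FGF) family was described across the cell classes of blood-generating heart-forming organoids (BG-HFOs). It was taken as 32 genes, found by symbol among the 36601 genes of both count matrices. They encode 22 FGFs, 5 receptors, 2 klotho co-receptors and 3 FGF-binding proteins. Of the 22 FGFs, 18 are secreted ligands and 4 stay inside the cell. BG-HFOs are human pluripotent stem cell-derived organoids in which heart muscle, vessels, stroma and blood cells form side by side. They were grown from hES3 NKX2.5-eGFP, an established human embryonic stem cell line that carries a green fluorescent reporter in the cardiac gene NKX2-5. Single-cell RNA sequencing was performed on day 14 on 2 organoids, 32.7 and 33.10, both under the same protocol, so there is no treated or control group and every comparison is between cell classes of the same 2 organoids. Recombinant basic FGF was part of the culture media, which gene counts do not show. By the paper's methods the media also held other growth factors and cytokines, among them vascular endothelial growth factor and stem cell factor.

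FGFs are signalling proteins that bind tyrosine kinase receptors on the cell surface. Paracrine FGFs act on neighbouring cells and are held close to their source by heparan sulphate, whereas endocrine FGFs travel in the blood and need a klotho protein beside the receptor. A further branch, the FGF homologous factors, is not secreted and binds voltage-gated sodium channels inside the cell. In the embryo, FGF signalling takes part in the formation of the heart fields, the vessels, the liver bud and the first blood cells.

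The matrices held 16866 barcodes with 191152562 unique molecular identifiers (UMIs) for organoid 32.7 and 19948 barcodes with 233818881 UMIs for organoid 33.10. After the study's cell filter, 47.9% and 51.0% of cells passed a lineage gate with a margin over other gates. No margin over the gate of haematopoietic progenitors was asked of the other classes. A gate is a threshold on the summed UMIs of a list of lineage genes, and the lists hold no member. The unclassed cells were shallower, with a median of 4868 and 6148 UMIs against 11125 and 9898 in classed cells. The gates gave 12 classes in each organoid: arterial endothelium (AE, 1613 and 1569 cells), venous endothelium (VE, 448 and 465), cardiomyocytes (CM, 1237 and 1316), stroma expressing WT1, TBX18 and related genes (Epi, 419 and 741), LUM-high stroma (LUM, 1018 and 385), other mesenchyme (MES, 569 and 700), posterior foregut endoderm (PFE, 162 and 20), erythroid cells (Ery, 601 and 1531), megakaryocytes (Mk, 970 and 2777), monocytes and macrophages (Mo, 784 and 501), neutrophil-like granulocyte precursors (Neu, 171 and 31) and haematopoietic progenitors (HPC, 49 and 102). Some markers outside the gates did not go with the names of the classes. Epi cells had almost no MSLN, a mesothelial marker (0.167 and 0.388 CPM), so that Epi is used here as the name of its gate. The epicardial gene TBX20 stood at 124 and 210 CPM in Epi and at 288 and 370 CPM in CM. TBX20 and the other Epi markers outside the gates reached at most 80.3 CPM in LUM and 147 CPM in MES. HPC had less CD34 (35.2 and 36.3 CPM) than AE (205 and 233 CPM). The paper describes CD34 as expressed by all endothelial cells, so this difference was not counted against the name HPC. The HPC markers outside the gates, MLLT3, ALDH1A1, KCNK17 and CD34, reached at most 97.2 CPM in HPC. They reached 173 CPM in CM, 111 in Epi, 106 in LUM, 105 in VE and 109 CPM in Ery. In MES, PFE, Mk, Mo and Neu they reached less than in HPC. HPC is therefore also used here as the name of its gate. PFE held the stromal marker FN1, which encodes fibronectin, at 1318 and 4862 CPM, against 2144 and 2124 CPM in MES, whereas the stromal marker PDGFRB stood at 11.3 and 7.90 CPM in PFE and 129.7 and 123.6 CPM in MES. The neural markers PAX6, SOX10, ELAVL4 and STMN2 ranged from 0 to 178 CPM in MES, 113 CPM in Epi, 77.3 CPM in LUM and 49.3 CPM in PFE. In the other classes they reached no more than 12.8 CPM. Whether neural cells lie within the stromal classes was not tested. AE and VE, and likewise Epi, LUM and MES, are ranges cut from a score, and 483 and 515 endothelial and 1548 and 1683 stromal cells lay in no range. RNA free in the cell suspension can be counted in any class. The embryonic globin HBZ stood at 67.6 to 373 CPM in the non-blood classes against 49599 and 42999 CPM in Ery. The erythroid markers outside the gates, HBZ, HBE1, HBG2 and HBA2, ranged from 353 to 14096 CPM in Mk and from 4665 to 49599 CPM in Ery. They reached at most 3314 CPM in the other blood classes, in Neu, and at most 511 CPM in the non-blood classes, in LUM. The parts of free RNA, doublets and expression in these values were not tested. As no free RNA was measured, its profile is taken below from the sum of all kept cells.

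Levels are given as UMIs of the gene per 1000000 UMIs of the class (CPM), first for organoid 32.7 and then for 33.10. Counts included introns, so levels are compared between classes and not between genes. Differences are log2 fold changes ± standard error from edgeR fitted on the sums of 12 classes over 2 organoids, with p-values adjusted over all 21088 genes tested. With 2 sums per class, the spread behind a p-value is only that between 2 organoids. It was estimated over all 12 classes together, with sums of the same organoid taken as independent. A small p-value can therefore stand beside organoids that disagree in the class compared.

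Of the 32 members, 14 reached a mean of 10 CPM in some class and 11 stayed below 1 CPM in every class. A filter on low counts left 22 members for testing. It asks for a minimum count in 2 sums of any class, so a member could enter through the 1 class where it was high. FGFR4, with 58.6 and 49.3 CPM in PFE and no more than 1.06 CPM elsewhere, is such a case. KL, above 1 CPM only in AE and VE, and FGF9, above 1 CPM only in CM and in Epi of 32.7, are similar cases. So are FGF5 and FGF20, above 1 CPM only in Epi and MES. The test of such a member in the class or classes where it was high is not independent of the filter. FGF3, FGF4, FGF6, FGF16, FGF17, FGF19, FGF21, FGF22, FGFBP1 and FGFBP2 did not pass the filter. Among these, FGF16 was highest in CM at 1.01 and 0.368 CPM, and the endocrine ligand FGF19 had 2 UMIs and the endocrine ligand FGF21 had 2 UMIs over all classes. No FGFBP1 UMI fell in any class. FGFBP1 is known to release stored FGFs from the matrix. Of the binding proteins only FGFBP3, between 1.29 and 10.4 CPM in every class of either organoid, was seen throughout.

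**Figure D1:**
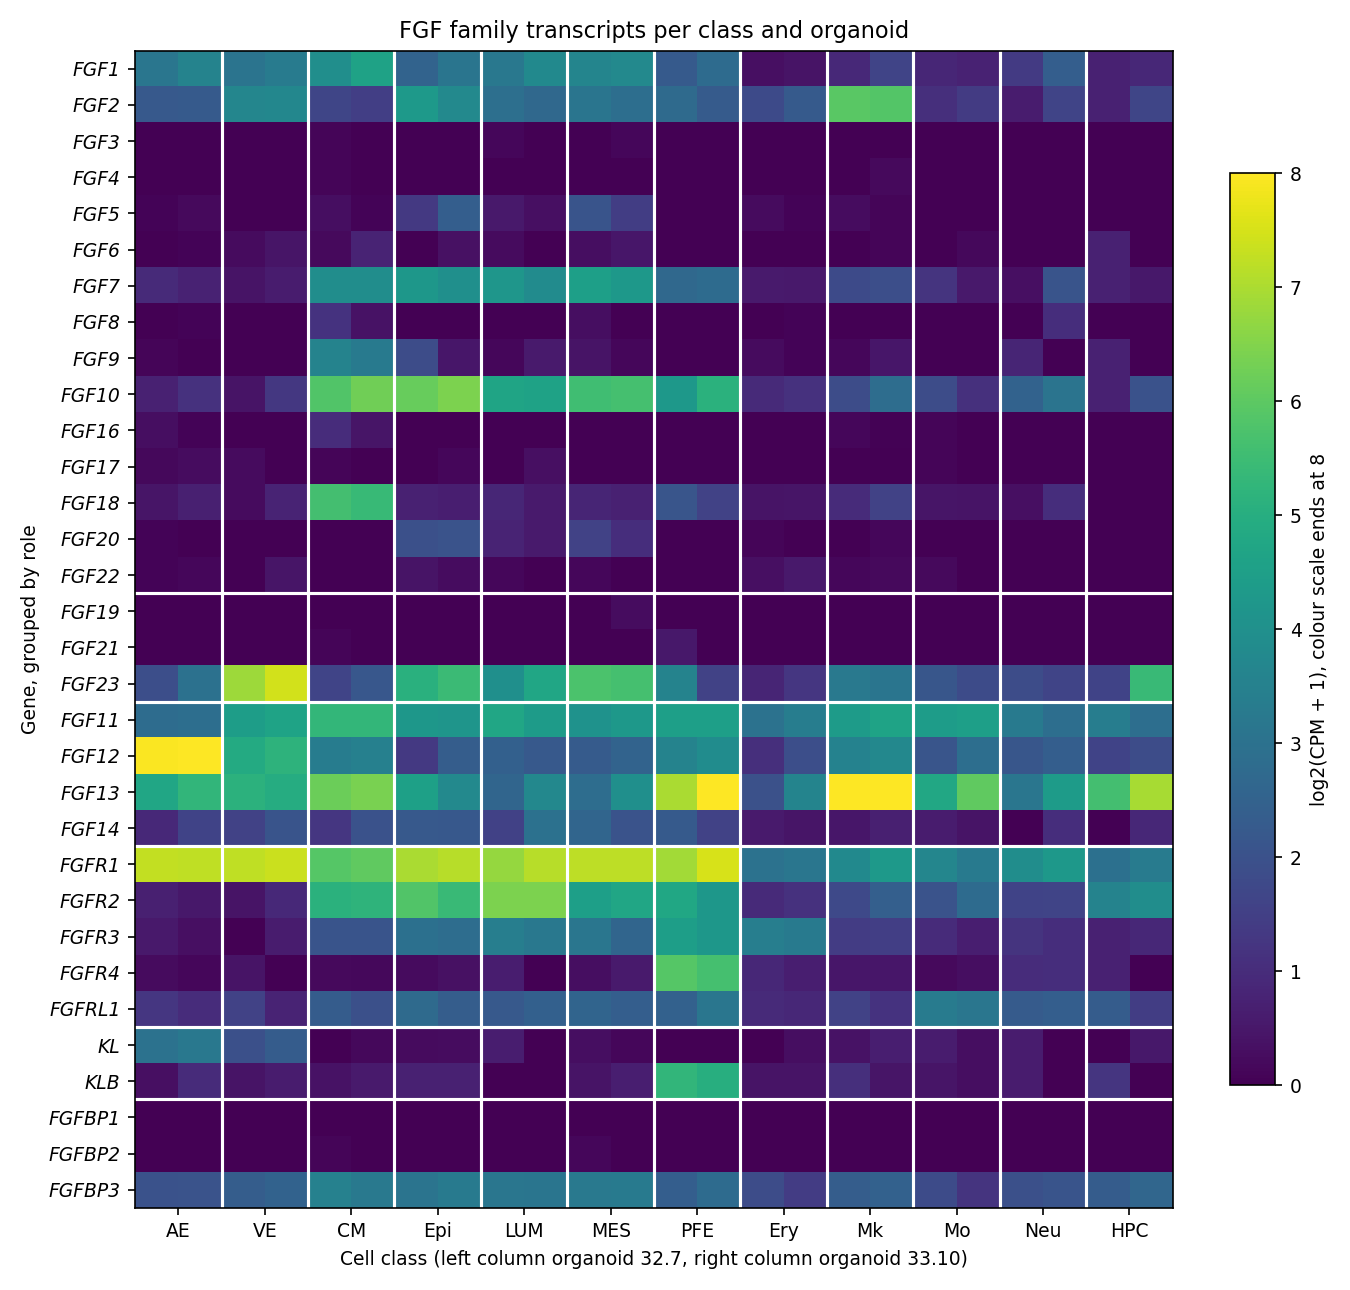
Heat map of the level of the 32 members, as log2(CPM + 1), in each of 12 classes and 2 organoids; members are grouped by role and the colour scale is shared. FGF12 stands out in AE, FGF23 in VE, FGF18 in CM, FGFR4 and KLB in PFE, and FGF2 and FGF13 in Mk, in both organoids. FGF13 is also high in PFE, below Mk in 32.7 and above it in 33.10 (1024 against 303 CPM). The colour scale is capped, so these values of 33.10 look alike.

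Cardiomyocytes and stroma were the classes with the most paracrine ligands. FGF10, FGF18 and FGF9, which in the embryo act between heart or gut mesenchyme and its neighbouring tissues, each had a separate distribution. FGF10 was highest in Epi (69.0 and 85.6 CPM) and CM (55.5 and 76.4 CPM), followed by MES (45.4 and 49.4 CPM), LUM (24.4 and 23.6 CPM) and PFE (18.4 and 33.6 CPM). The ranges of Epi and CM overlapped, and both lay above MES. AE held 0.671 and 1.23 CPM and VE 0.334 and 1.44 CPM, the level also found in Ery (0.931 and 1.21 CPM). FGF10 was therefore lower in endothelium, taken as the mean of AE and VE, than in stroma, taken as the mean of Epi and MES, by a log2 fold change of -5.98 ± 0.30 (adjusted p = 7.97e-12), with -6.76 from organoid 32.7 alone and -5.53 from 33.10 alone. In single cells, 28.4% and 41.5% of CM and 35.8% and 35.4% of Epi cells had a FGF10 UMI, compared with 0.744% and 1.21% of AE cells, at median depths of 7937 and 10263, 12723 and 11764, and 12449 and 10032 UMIs. After thinning each cell to 5000 UMIs the shares were 20.1% and 27.5% in CM, 21.7% and 21.2% in Epi and 0.467% and 0.437% in AE.

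FGF18, a ligand best known from bone and lung, was found in one class. CM held 48.3 and 41.3 CPM, PFE 3.35 and 1.97 CPM, and no other class more than 2.00 CPM in either organoid. Against stroma, CM had a log2 fold change of 6.17 ± 0.27 (adjusted p = 1.27e-11). A FGF18 UMI was seen in 26.8% and 28.5% of CM, against 0.434% and 0.574% of AE cells, and the thinned shares were 19.0% and 14.9% against 0.133% and 0.291%. FGF18 was thus found in the same class in both organoids.

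FGF9, which in the mouse heart comes from epicardium and endocardium, was also highest in CM, at 11.0 and 8.72 CPM. Epi followed with 2.67 and 0.388 CPM, which differed between organoids, and every other class was below 1 CPM. The log2 fold change of CM over stroma was 4.30 ± 0.56 (adjusted p = 1.41e-05), or 3.67 in 32.7 and 5.54 in 33.10 alone. FGF9 exceeded 1 CPM only in CM and in Epi of 32.7, so its test in CM is not independent of the low-count filter. FGF8, an early ligand of the heart fields, was 4.32 ± 1.25 higher in CM than in stroma on the log2 scale (adjusted p = 0.0165), but its level in CM was only 1.24 and 0.307 CPM, and with DESeq2 the adjusted p was 0.611. FGF8 had 26 UMIs over all classes. It exceeded 1 CPM only in CM of 32.7 and, from 1 UMI, in Neu of 33.10 (1.06 CPM). It thus entered the test partly through the level that was tested, and its p-value carries little weight. FGF1 was higher in CM (14.5 and 23.5 CPM) than in stroma (Epi 4.83 and 7.57 CPM, MES 11.4 and 12.5 CPM) by 1.25 ± 0.23 (adjusted p = 2.78e-04). AE (7.82 and 10.8 CPM) and VE (7.36 and 9.03 CPM) lay within the stromal range.

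FGF7, the keratinocyte growth factor of mesenchyme, did not differ at the threshold between CM and stroma (log2 fold change -0.22 ± 0.23, adjusted p = 0.496): CM had 14.2 and 14.2 CPM, Epi 17.99 and 14.8, LUM 17.4 and 13.4 and MES 21.9 and 18.1 CPM. It was nearly missing from AE (0.939 and 0.694 CPM) and VE (0.334 and 0.542 CPM), with a log2 fold change of -4.81 ± 0.29 for endothelium against stroma (adjusted p = 8.03e-11). FGF20 exceeded 1 CPM in Epi and MES alone, at 2.83 and 3.11 CPM in Epi and 1.99 and 1.06 CPM in MES. No FGF20 UMI was found in CM of either organoid, where a count of 0 allows up to 0.232 and 0.184 CPM, so that the mean of Epi and MES was at least 10.4-fold higher in 32.7 and at least 11.3-fold higher in 33.10. FGF5 had a similar low level in Epi (1.499 and 4.27 CPM) and MES (3.21 and 1.73 CPM). With 0 UMIs in VE, it was at least 4.70-fold and 5.54-fold higher in the mean of Epi and MES.

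Between CM and stroma, 13 of the 22 members tested passed the threshold, beside 40.0% of all genes (19.3% higher and 20.7% lower); 7 were higher and 6 lower in CM, and the median log2 fold change was -0.27 for the members and -0.02 for all genes. In addition to the ligands above, the lower members were FGF2 (log2 fold change -2.27 ± 0.25, adjusted p = 9.98e-07), FGF23 (-3.82 ± 0.53, adjusted p = 1.12e-05), FGFR1 and FGFR3 (-0.86 ± 0.28, adjusted p = 0.0176). Endothelium and stroma differed at 14 of the 22 members, 3 higher and 11 lower in endothelium, beside 52.9% of all genes (24.9% higher and 28.0% lower), with a median of -0.77 for the members and -0.04 for all genes. The higher members were FGF12, KL and FGF13 (1.30 ± 0.50, adjusted p = 0.0348; 0.0770 with DESeq2). FGFRL1 (-1.79 ± 0.28, adjusted p = 2.76e-05) and FGFBP3 (-1.10 ± 0.19, adjusted p = 7.55e-05) were among the lower ones, and FGF2 and FGF11 were lower by less than 1 log2 unit. For FGF2 and FGF11 only AE lay below both Epi and MES in both organoids. In VE, FGF11 (20.9 and 24.2 CPM) lay above Epi and MES, and FGF2 (11.9 and 11.9 CPM) lay between MES and Epi.

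**Figure D2:**
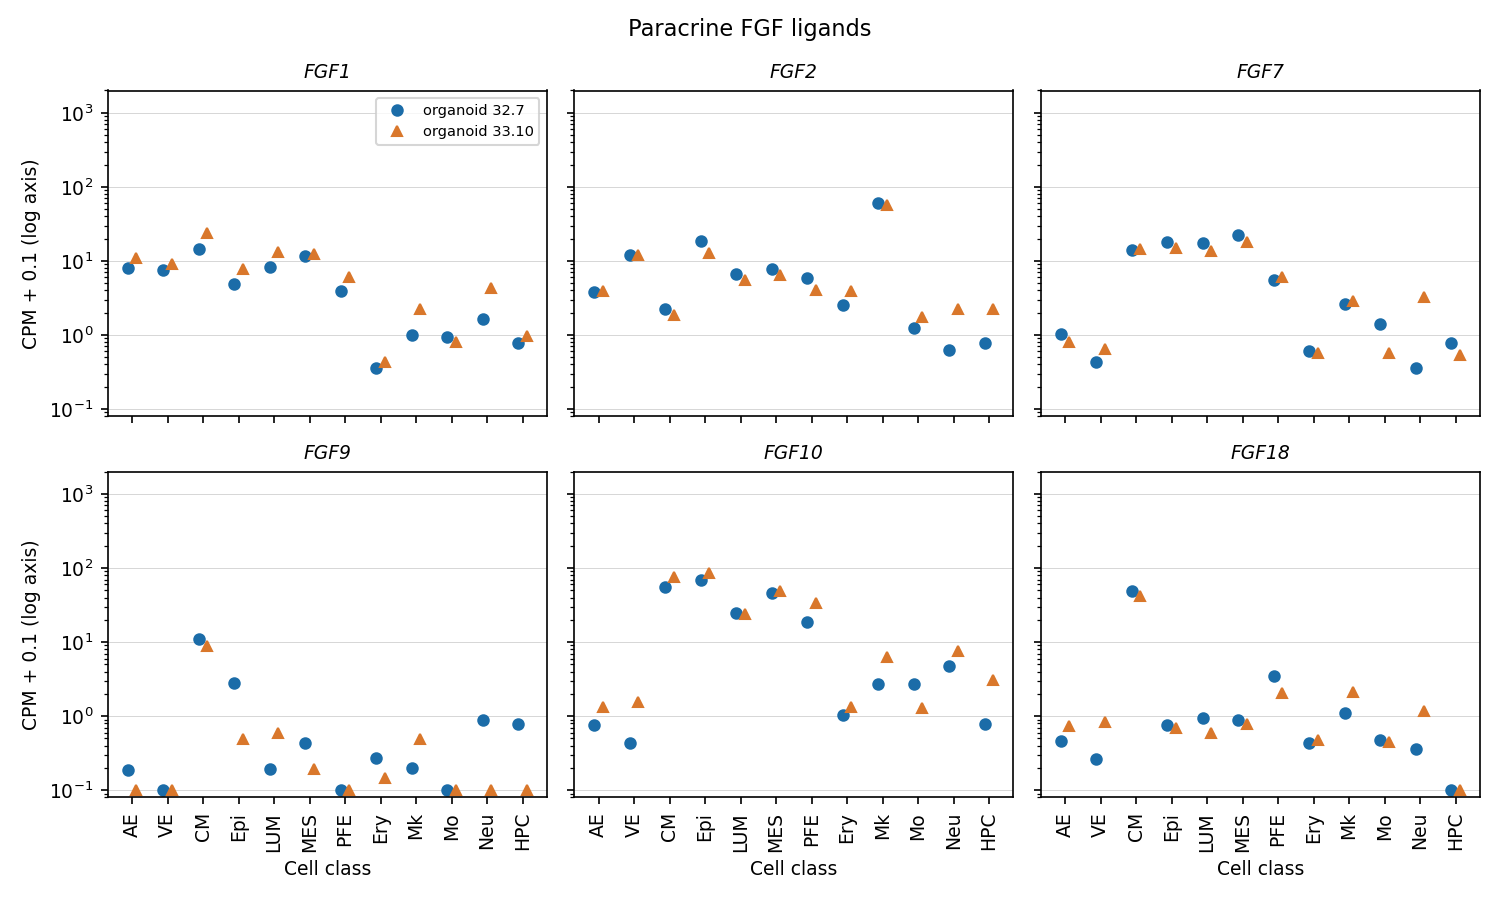
Level of 6 secreted paracrine ligands in each class, as CPM + 0.1 on a log axis; each point is one organoid. FGF18 and FGF9 peak in CM, FGF10 and FGF7 span CM and stroma and fall in AE and VE, and FGF2 peaks in Mk at 60.6 and 57.6 CPM.

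FGF2, the basic FGF of the culture media, had its highest transcript level in a blood class. Mk held 60.6 and 57.6 CPM, above Epi (18.5 and 12.6 CPM) and VE (11.9 and 11.9 CPM), and Ery held 2.45 and 3.83 CPM. The gap between Mk and Ery came to a log2 fold change of 3.85 ± 0.25 (adjusted p = 1.001e-09). A FGF2 UMI was seen in 26.8% and 24.8% of Mk and 3.49% and 3.72% of Ery cells, although Ery cells were deeper (medians of 16494 and 11097 UMIs against 7496 and 7391), and the thinned shares were 21.7% and 18.1% against 1.27% and 2.05%. Within stroma, FGF2 was higher in Epi than in MES (7.65 and 6.34 CPM) by 1.10 ± 0.25 (adjusted p = 0.0181), a difference whose adjusted p was 0.108 after removal of 10% of the free RNA profile. The gene overlaps NUDT6 on the opposite strand.

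Endocrine FGF23, the bone-derived hormone that lowers blood phosphate, marked the venous side of the endothelium. VE held 114 and 174 CPM (144 ± 42.5, SD, n = 2), MES 52.6 and 49.2 CPM, Epi 32.5 and 42.8 CPM, LUM 14.9 and 25.4 CPM, and AE 2.82 and 6.99 CPM. VE lay above every other class in both organoids, and the values of AE and CM (2.09 and 3.50 CPM) overlapped. The endothelial cells that met neither the arterial nor the venous criterion had 20.8 and 17.0 CPM, between AE and VE. For VE against AE, the log2 fold change was 4.77 ± 0.53 (adjusted p = 7.61e-06), or 5.15 in 32.7 and 4.48 in 33.10 alone. The share of cells with a FGF23 UMI was 21.7% and 26.9% in VE, 1.98% and 2.17% in AE and 0.998% and 0.980% in Ery, and after thinning 18.2% and 22.2%, 0.933% and 1.09%, and 0% and 0.228%. In HPC the organoids disagreed, with 2.03 and 41.5 CPM; 1 cell of 33.10 held 61.5% of its 96 UMIs, and without that cell the value was 16.4 CPM. Stroma held FGF23 too, and endothelium as a whole did not differ from it at the threshold (-0.67 ± 0.34, adjusted p = 0.102, and 0.0401 with the organoid as a block).

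KL encodes klotho, the co-receptor FGF23 needs to signal at physiological levels, and was limited to the endothelial classes and very low counts. It reached 7.02 and 8.27 CPM in AE and 2.84 and 3.97 CPM in VE, and no more than 0.606 CPM in any other class of either organoid. Endothelium exceeded stroma by 4.87 ± 0.51 (adjusted p = 3.18e-07). KL passed the low-count filter through AE and VE, so this test is not independent of the filter. VE was lower than AE in both organoids, by -1.29 ± 0.45, which missed the threshold (adjusted p = 0.0693) and passed it with the organoid as a block (0.0397). A KL UMI was seen in 7.75% and 7.97% of AE, 3.79% and 3.87% of VE and 0.351% and 0.143% of MES cells. The ligand FGF23 and the co-receptor KL thus had their higher endothelial level in different ranges, the first in VE by test, the second in AE only by its values.

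FGF12, a homologous factor of sodium channels known from neurons and heart, was the reverse of FGF23. AE held 248 and 271 CPM, VE 28.6 and 35.03 CPM, and the endothelial cells in neither range 150 and 145 CPM. In CM it was 9.36 and 10.2 CPM. The log2 fold change of VE against AE was -3.15 ± 0.26 (adjusted p = 2.33e-07), and that of endothelium over stroma 4.70 ± 0.22 (adjusted p = 3.33e-12). A FGF12 UMI was present in 68.8% and 64.8% of AE, 17.6% and 19.4% of VE and 1.83% and 2.29% of Ery cells, and in 53.3% and 53.1%, 10.8% and 11.0%, and 0.363% and 0.837% after thinning. FGF12 spans 628375 bases, and 3 antisense genes (FGF12-AS1, FGF12-AS2 and FGF12-AS3) lie within it.

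The 250 bases upstream of the RefSeq start of each of these 2 genes are shown because FGF23 and FGF12 had the largest differences between VE and AE among the members past the threshold, in opposite directions. FGF23 lies on chromosome 12 (GRCh38, 4368227 to 4379712, minus strand) and FGF12 on chromosome 3 (192139390 to 192767764, minus strand). The sequences are from RefSeq on GRCh38.p14, on the strand of the gene, chr12:4379713-4379962 for FGF23 and chr3:192727542-192727791 for FGF12; the second precedes only one of the starts of the gene. Capitals mark AGGTCA, the core site of nuclear receptors such as the venous factor NR2F2, and AGATAA, which factors of the GATA family bind.
FGF23: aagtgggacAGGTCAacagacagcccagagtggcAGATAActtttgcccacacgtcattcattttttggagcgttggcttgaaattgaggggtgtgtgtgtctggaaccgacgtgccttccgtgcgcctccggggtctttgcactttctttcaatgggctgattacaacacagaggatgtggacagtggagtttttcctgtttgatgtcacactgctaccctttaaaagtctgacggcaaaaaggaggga
FGF12: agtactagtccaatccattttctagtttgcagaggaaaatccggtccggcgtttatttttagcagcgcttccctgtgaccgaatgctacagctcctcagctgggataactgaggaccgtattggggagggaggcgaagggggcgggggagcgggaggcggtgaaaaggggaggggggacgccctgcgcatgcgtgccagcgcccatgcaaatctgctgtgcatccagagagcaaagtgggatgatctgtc
AGGTCA, searched on both strands, starts 241 bases before the FGF23 start and AGATAA 216 bases before it. AGGTCA occurs in 12.1% of the 27305 promoters of the same length and in 3 of the 24 members with a promoter in the table (FGF6, FGF7 and FGF23), and AGATAA in 9.37% of promoters and in 1 member. The RBPJ motif GTGGGAA (5.46% of promoters) was in no member, AACAAAG (4.54%), a SOX factor motif, was in FGFBP1 alone, and the consensus of the hepatocyte factor HNF1 (1 promoter) and CAAAGTCCA (0.293%), a site of the hepatocyte factor HNF4, were in none. A match gives letters in a window and no evidence of binding.

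FGF2 and FGF11 were the other members that passed the test between VE and AE. FGF2 was higher in VE (11.9 and 11.9 CPM) than in AE (3.76 and 3.84 CPM), by 1.52 ± 0.26 (adjusted p = 4.18e-04). FGF11, another homologous factor, followed the same order, with 20.9 and 24.2 CPM in VE and 6.08 and 6.35 CPM in AE (log2 fold change 1.73 ± 0.19, adjusted p = 4.82e-06). Together 4 of 22 members passed, 3 higher and 1 lower in VE, beside 14.0% of all genes (6.92% higher and 7.07% lower). The median log2 fold change of the 22 members was -0.25, against -0.06 for all genes. VE held more cycling cells (9.60% and 12.7%) than AE (2.67% and 2.10%), and all 4 members stayed past the threshold without them.

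**Figure D3:**
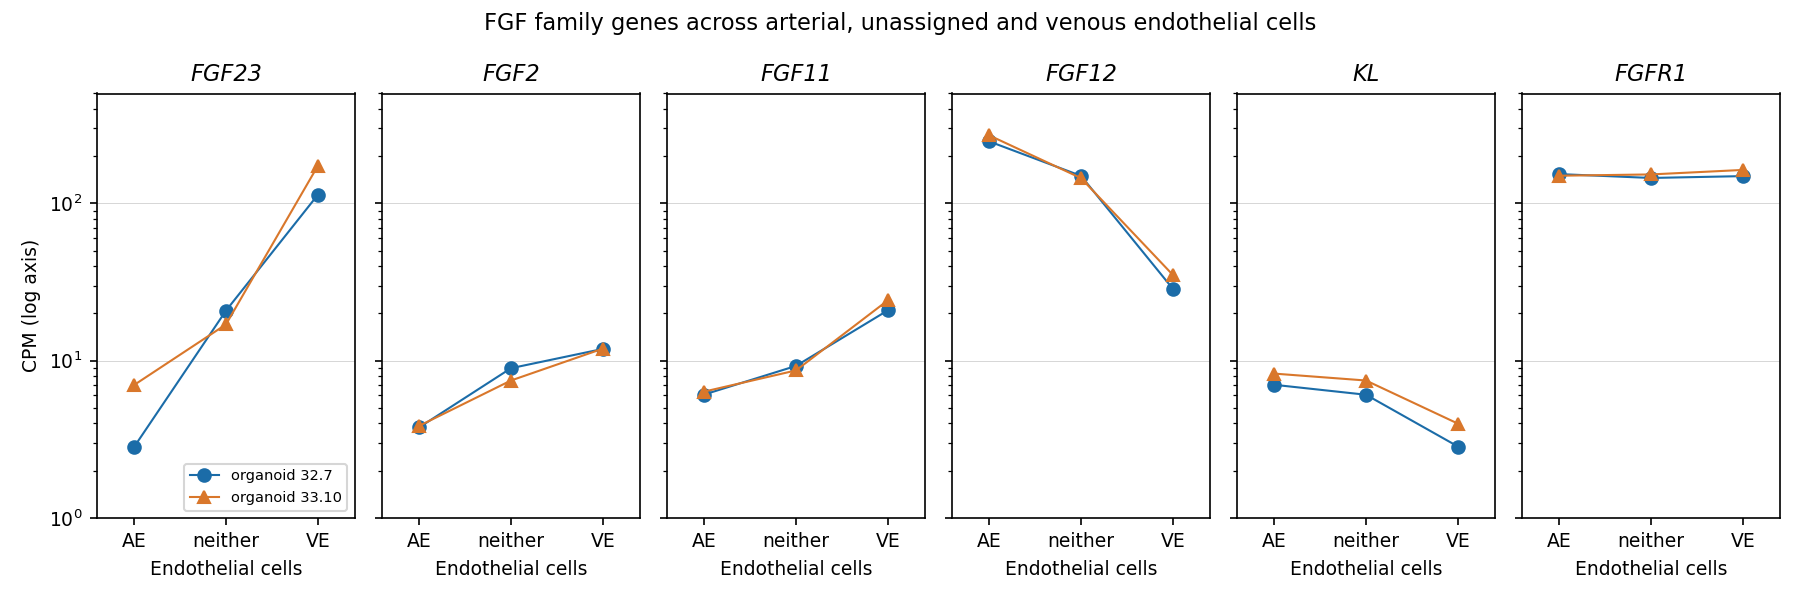
Level in CPM of FGF23, FGF2, FGF11, FGF12, KL and FGFR1 in endothelial cells of the arterial range, of neither range and of the venous range, one point per organoid. FGF23, FGF2 and FGF11 rise from AE to VE, FGF12 falls from 248 and 271 to 28.6 and 35.03 CPM, and FGFR1 stays between 145 and 163 CPM.

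FGF13, a further homologous factor, had 262 and 303 CPM in Mk, 73.1 and 83.7 CPM in CM, 34.3 and 29.98 CPM in VE and 25.4 and 37.1 CPM in AE. Ery, with 2.96 and 11.3 CPM, lay lowest in both organoids. Mk exceeded Ery by 4.89 ± 0.75 on the log2 scale (adjusted p = 2.44e-05; 6.11 in 32.7 and 4.36 in 33.10 alone), and CM exceeded stroma by 2.67 ± 0.55 (adjusted p = 7.25e-04). In Mk, 45.3% and 51.5% of cells had a FGF13 UMI, against 3.83% and 6.86% in Ery. PFE was higher than the other non-blood classes (log2 fold change 4.20 ± 0.45, adjusted p = 9.05e-07), but at 124 CPM in 32.7 and 1024 CPM in 33.10 the organoids differed (2.47 from 32.7 alone and 5.07 from 33.10 alone), and in 33.10 a single cell held 341 of 519 UMIs (65.7%). Without the top cell of each organoid the PFE values were 116 and 417 CPM. FGF11 was highest in CM (38.0 and 38.1 CPM, 1.27 ± 0.14 over stroma, adjusted p = 9.71e-07), and FGF14 did not exceed 6.96 CPM in any class of either organoid.

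FGFR1, the receptor with the widest reach in mesoderm, was high in endothelium, stroma and PFE, lower in CM and low in blood. AE had 154 and 150 CPM, VE 149 and 163, MES 147 and 147, Epi 125 and 141, LUM 106 and 140 and PFE 117 and 184 CPM. These ranges overlapped or lay close, and endothelium against stroma gave 0.21 on the log2 scale (adjusted p = 0.123). CM was lower, at 58.0 and 64.5 CPM, by -1.07 ± 0.14 against stroma (adjusted p = 6.71e-06). Blood classes held 6.76 to 18.5 CPM, and the blood mean was -3.26 ± 0.09 against the mean of AE, VE, CM, Epi and MES (adjusted p = 2.63e-15). In bulk sums of a class, fewer expressing cells and less RNA per cell cannot be told apart; 75.9% and 71.2% of AE and 10.1% and 7.71% of Ery cells had a FGFR1 UMI.

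FGFR2, the receptor for FGF7 and FGF10 in its epithelial isoform, was a receptor of stroma and heart muscle. LUM held 84.1 and 84.5 CPM, Epi 56.1 and 41.7, CM 33.8 and 36.2, PFE 26.0 and 17.8 and MES 21.7 and 25.5 CPM. LUM lay above every other class in both organoids, while MES and PFE overlapped. AE (0.626 and 0.427 CPM) and VE (0.334 and 0.903 CPM) were at the level of Ery (0.931 and 1.21 CPM), and endothelium was lower than stroma by -5.79 ± 0.26 (adjusted p = 2.07e-12). The gene counts do not separate the receptor isoforms. LUM exceeded MES by 1.92 ± 0.24 (adjusted p = 2.10e-04), with a FGFR2 UMI in 37.4% and 37.1% of LUM and 17.0% and 18.3% of MES cells (27.4% and 28.5% against 9.92% and 7.28% after thinning). Stromal cells in none of the 3 ranges had 48.1 and 36.2 CPM. Epi exceeded MES by 1.01 ± 0.23 (adjusted p = 0.0207; 0.102 without cycling cells and 0.366 with free RNA removed).

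Within stroma few members differed, as did few genes of any kind. Between LUM and MES, FGFR2 was the only one of 22 members past the threshold, beside 7.01% of all genes (3.47% higher and 3.54% lower in LUM), with medians of -0.09 for the members and -0.03 for all genes. With the organoid as a block, 4 members passed: FGFR2, FGF10 (-0.85 on the log2 scale, adjusted p = 0.0270), FGF11 (0.53, adjusted p = 0.0474) and FGF23 (-1.33, adjusted p = 0.0381). Between Epi and MES, FGF2 and FGFR2 passed, both higher, beside 3.23% of all genes (1.28% higher and 1.95% lower in Epi), with medians of -0.02 and -0.01, and the block added FGF1 (-0.99, adjusted p = 0.00649). Of the cells in these ranges, 19.7% to 41.5% lay within 25% of a threshold.

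**Figure D4:**
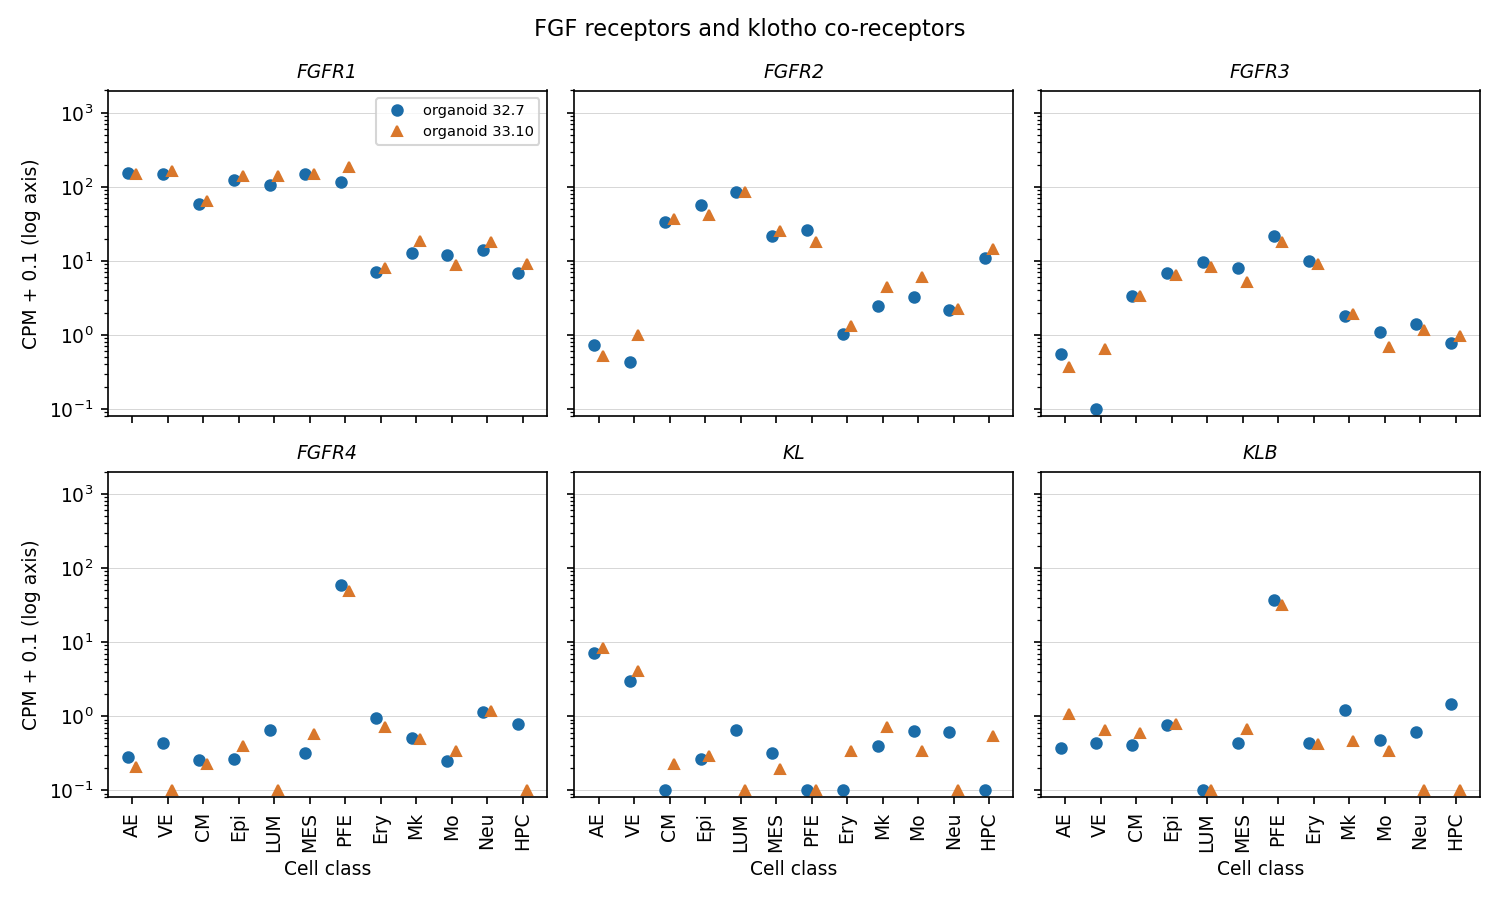
Level of FGFR1 to FGFR4, KL and KLB in each class, as CPM + 0.1 on a log axis; each point is one organoid. FGFR1 spans all non-blood classes, FGFR2 the stroma, CM and PFE, FGFR4 and KLB lie far above the other classes in PFE, and KL is highest in AE.

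PFE was the class that held all 4 tyrosine kinase receptors at 10 CPM or more in both organoids. FGFR4, the receptor of hepatocytes that answers FGF19, had 58.6 and 49.3 CPM in PFE and no more than 1.06 CPM in any other class of either organoid (log2 fold change against the other non-blood classes 8.02 ± 0.33, adjusted p = 1.02e-12). KLB, its co-receptor beta-klotho, had 37.3 and 31.6 CPM in PFE and at most 1.35 CPM elsewhere (6.09 ± 0.38, adjusted p = 1.46e-09; 6.76 in 32.7 and 5.49 in 33.10 alone). The 2 partners were therefore found in one class, whereas their ligands FGF19 and FGF21 were close to 0, with 0 FGF19 UMIs and 1 FGF21 UMI in the PFE cells of both organoids. A FGFR4 UMI was seen in 36.4% and 65.0% of PFE and 0.248% and 0.127% of AE cells, at medians of 7708 and 16644 UMIs in PFE, and in 23.7% and 22.2% of PFE after thinning.

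FGFR3 was likewise highest in PFE, at 21.4 and 17.8 CPM, ahead of LUM (9.69 and 8.20 CPM), Ery (9.73 and 8.92 CPM), Epi (6.66 and 6.31 CPM) and MES (7.87 and 5.09 CPM). Its log2 fold change in PFE was 3.60 ± 0.31 (adjusted p = 5.24e-08; 4.48 in 32.7 and 3.22 in 33.10 alone), and that of FGFR2 1.86 ± 0.29 (adjusted p = 7.02e-05; 2.20 and 1.24 alone). FGF10 was higher (0.98 ± 0.36, adjusted p = 0.0482) and FGF1 lower (-1.23 ± 0.43, adjusted p = 0.0421) near the threshold. In every PFE test the other non-blood classes are the mean of AE, VE, CM, Epi and MES on the log scale, without LUM. AE and VE, with low levels of FGF10 and FGFR2, enter this mean. In both organoids FGF10 in PFE (18.4 and 33.6 CPM) lay below CM, Epi and MES. FGFR2 in PFE (26.0 and 17.8 CPM) lay below CM, Epi and LUM. In all 7 of 22 members passed in PFE, beside 27.6% of all genes (13.9% higher and 13.7% lower), 6 higher and 1 lower, with medians of 0.28 for the members and -0.10 for all genes. The 20 PFE cells of organoid 33.10 limit these values. The entry count of this gate had been lowered from 30 to 20 UMIs when 30 left 19 cells there; at 30, 6 members passed, and FGF10 did not (adjusted p = 0.0858).

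In blood, 14 of the 22 members differed from the non-blood mean, 12 lower and 2 higher, beside 64.9% of all genes (27.6% higher and 37.2% lower), with medians of -0.82 for the members and -0.15 for all genes. FGFR1 and FGF1 fell furthest, FGF1 by -3.21 ± 0.20 (adjusted p = 7.56e-11). The 2 higher members were close to the threshold: FGF13 (0.78 ± 0.33, adjusted p = 0.0498), with 0.24 in 32.7 and 1.25 in 33.10 alone, and FGFR4 (1.30 ± 0.54, adjusted p = 0.0444), which stayed at or below 1.06 CPM in all blood classes. For FGF2, the mean over blood classes mixed the high level in Mk with 0.520 to 3.83 CPM in the other 4 classes, and its difference of -0.71 ± 0.19 (adjusted p = 0.00292) turned to 0.32 without cycling cells (adjusted p = 0.371). In that setting Neu kept 2 of its 31 cells in 33.10 and was not in the blood mean. FGF11, at -0.30 ± 0.09 (adjusted p = 0.00896), turned to 0.04 there (adjusted p = 0.865). With 10% of the free RNA profile removed, or without cycling cells, 9 members passed instead of 14.

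Megakaryocytes and erythroid cells, the neighbouring branches of early blood, differed at 13 of 22 members, beside 51.4% of all genes. In Mk 12 were higher (28.9% of all genes) and 1 lower (22.5%), with medians of 1.16 for the members and 0.22 for all genes. FGF2 and FGF13 had the levels in Mk given above. FGF12 had 10.6 and 12.2 CPM in Mk and 1.10 and 2.80 CPM in Ery (2.10 ± 0.31, adjusted p = 1.61e-05; 2.90 in 32.7 and 1.74 in 33.10 alone). Among the other higher members, FGF10 had 2.60 and 6.28 CPM in Mk, FGF7 2.50 and 2.82 and FGF23 8.39 and 7.60 CPM, and in 32.7 a single cell held 39.3% of the FGF23 UMIs of Mk. Markers listed for other lineages were higher in Mk as well: in both organoids 4 of 4 endothelial markers were above Ery (21.8 to 358 CPM in Mk, 1.61 to 48.6 CPM in Ery), as were 4 of 4 stromal markers (0.357 to 130 against 0.0934 to 17.7 CPM) and 4 of 4 cardiomyocyte markers (11.3 to 988 against 2.62 to 661 CPM). The lists are not exclusive to those lineages: the paper also reports CD31, the product of the endothelial marker PECAM1, on haematopoietic progenitors. The erythroid markers HBZ, HBE1, HBG2 and HBA2 ranged from 353 to 14096 CPM in Mk, against 4665 to 49599 CPM in Ery. The part of all these markers in the differences of the members was not tested. After removal of predicted doublets 8 members passed and FGFR1 turned from 0.73 ± 0.18 (adjusted p = 0.00192) to -0.25 (adjusted p = 0.331). The single member lower in Mk was FGFR3, a receptor best known from cartilage, with 1.70 and 1.82 CPM in Mk and 9.73 and 8.92 CPM in Ery (-2.75 ± 0.32, adjusted p = 1.05e-06). A FGFR3 UMI was seen in 15.1% and 11.0% of Ery and 1.55% and 1.69% of Mk cells; after thinning the shares were 3.99% and 4.34% against 1.17% and 0.721%. Ery cells were more often cycling (45.1% and 31.3%) than Mk (10.8% and 8.93%), and FGFR3 passed the threshold in all 9 alternative settings with a test.

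In Mo, FGF11 had 20.3 and 21.8 CPM and FGF13 26.7 and 64.9 CPM, and in Neu FGFR1 had 14.0 and 18.1 CPM. FGFRL1, a receptor without a kinase domain, had its highest mean in Mo at 9.07 and 7.89 CPM, above Epi (5.83 and 4.08 CPM). PFE held 4.61 and 7.90 CPM, the second value from 4 UMIs and level with Mo. HPC had FGFR2 at 10.8 and 14.3 CPM, the highest of the blood classes, from 49 and 102 cells, and FGF13 at 48.0 and 123 CPM.

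**Figure D5:**
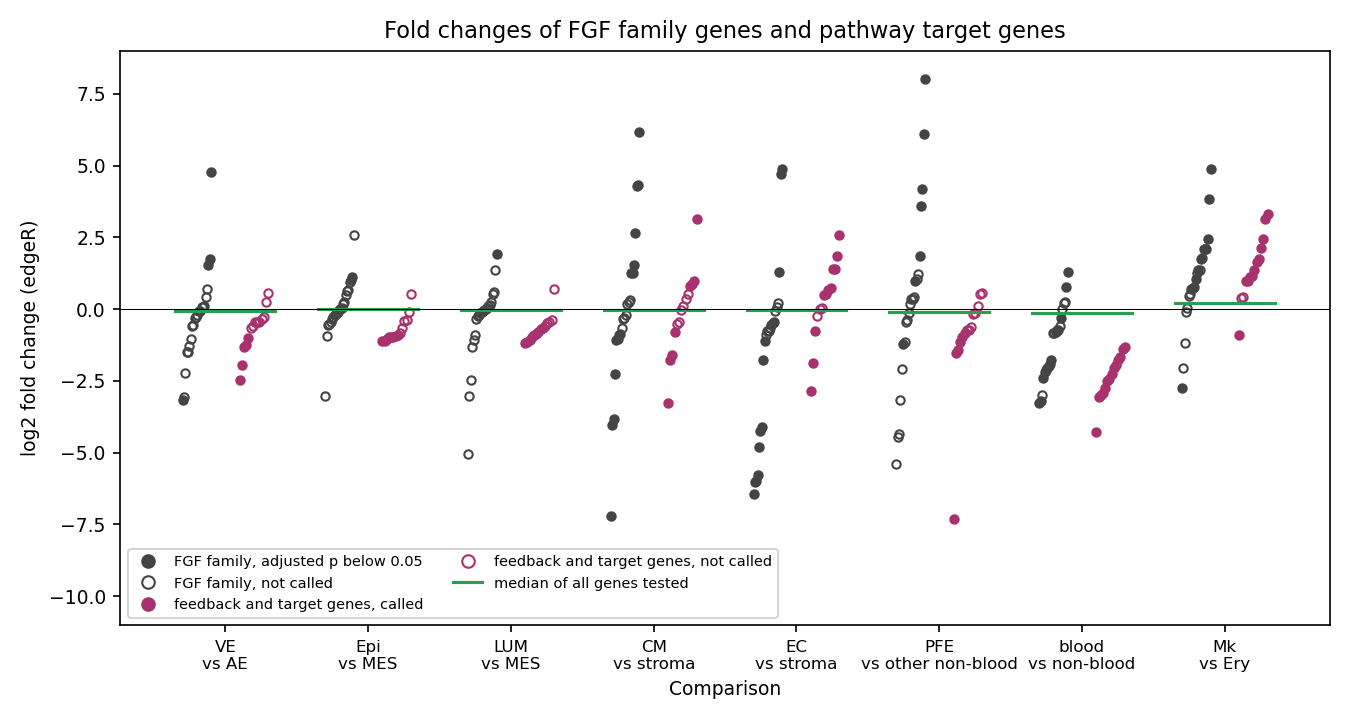
Log2 fold change of each tested member (circles) and of 14 feedback and target genes in 8 comparisons between classes; filled symbols passed an adjusted p of 0.05 and the green line is the median of all genes. The feedback genes are all below the line in blood, and FGFR4 in PFE is the highest point.

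Read as sources and receivers at 10 CPM or more in both organoids, secreted ligands and receptors were distributed unevenly. Introns were counted, so the same level is not equivalent for different genes. The genes a class held depend on this level, and a gene below it is not thereby absent. Of 18 secreted ligands, CM (FGF1, FGF7, FGF10 and FGF18), Epi (FGF2, FGF7, FGF10 and FGF23) and MES (FGF1, FGF7, FGF10 and FGF23) each held 4, LUM 3, VE 2, PFE and Mk 1, and AE, Ery, Mo, Neu and HPC 0. Of the 4 tyrosine kinase receptors, AE and VE held FGFR1 alone, CM, Epi, LUM and MES held FGFR1 and FGFR2, and PFE held all 4. Mk and Neu held FGFR1, HPC held FGFR2, and Ery and Mo held none at this level. These blood values lay near the level. FGFR1 had 12.8 and 18.5 CPM in Mk and 14.0 and 18.1 CPM in Neu, against 11.9 and 8.83 CPM in Mo. FGFR2 had 10.8 and 14.3 CPM in HPC. Over all kept cells FGFR1 stood at 89.0 and 83.7 CPM. The part of RNA from other cells in the blood values was not tested.

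Genes downstream of the receptors were counted from 3 lists. The first holds 14 feedback and target genes, such as the Sprouty and Spred inhibitors, the DUSP phosphatases that inactivate ERK and the ETV transcription factors that ERK signalling induces. In blood, 14 of 14 were lower than in the non-blood classes, beside 37.2% of all genes, with a median of -2.35 against -0.15 for all genes; IL17RD, an inhibitor also known as Sef, fell most (-4.28 ± 0.25, adjusted p = 5.75e-11). Within blood, 11 of 14 were higher and 1 lower in Mk than in Ery, beside 28.9% and 22.5% of all genes, and with predicted doublets removed 6 were higher. Among the 11 were DUSP5 (3.32 ± 0.25, adjusted p = 4.58e-09) and DUSP6 (2.44 ± 0.32, adjusted p = 5.37e-06; 3.09 from 32.7 alone and 2.12 from 33.10 alone). These genes answer other receptor tyrosine kinases too, and the part of FGF in their levels was not tested.

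In the vessels, 5 of the 14 feedback genes were lower in VE than in AE and 0 higher, beside 7.07% and 6.92% of all genes, with edgeR and likewise with DESeq2 (1 higher at an unadjusted p under 0.05). With the organoid as a block, and likewise without the low-count filter, 6 were lower and 1 higher. SPRY1 had 256 and 252 CPM in AE and 43.6 and 57.1 CPM in VE (log2 fold change -2.46 ± 0.34, adjusted p = 6.85e-05). SPRY4 went from 159 and 178 to 42.8 and 51.6 CPM (-1.96 ± 0.34, adjusted p = 5.27e-04) and SPRED2 from 98.0 and 123 to 38.4 and 57.6 CPM (-1.33 ± 0.20, adjusted p = 1.68e-04). FGFR1 did not show this difference, with 154 and 150 CPM in AE and 149 and 163 CPM in VE. Endothelium exceeded stroma at 8 of the 14 and was lower at 3, beside 24.9% and 28.0% of all genes, with DUSP5 higher (2.57 ± 0.16, adjusted p = 1.25e-10) and ETV1 (-2.85 ± 0.17, adjusted p = 8.29e-11) and SPRY2 (-1.88 ± 0.16, adjusted p = 9.38e-09) lower.

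In stroma, Epi was lower than MES at 5 of 14 (9 with the organoid as a block), beside 1.95% of all genes, and LUM was lower than MES at 5 of 14 (9 with the block), beside 3.54%. After removal of 10% of the free RNA profile 2 of 14 were lower in each. With edgeR and likewise with DESeq2 0 were higher in either (1 at an unadjusted p under 0.05 in each), while 1 was higher in LUM with gate counts doubled and 1 with predicted doublets removed. The medians were -0.92 and -0.74, against -0.01 and -0.03 for all genes. ETV4 (-1.12 ± 0.25, adjusted p = 0.0186) and DUSP5 (-1.11 ± 0.23, adjusted p = 0.00948) fell in Epi, and ETV1 (-1.17 ± 0.23, adjusted p = 0.00511) and DUSP6 (-1.07 ± 0.28, adjusted p = 0.0280) in LUM. In CM, 4 were higher and 4 lower than in stroma (12 changed with the block), beside 19.3% and 20.7% of all genes. IL17RD stood at 51.9 and 58.9 CPM in CM against 6.16 and 5.83 CPM in Epi (3.15 ± 0.21 over stroma, adjusted p = 2.79e-09), and the phosphatase DUSP4 at 1.93 and 1.29 CPM in CM against 14.7 and 14.95 CPM in Epi (-3.26 ± 0.31, adjusted p = 1.18e-07). In PFE 0 were higher and 6 lower than in the other non-blood classes (2 higher at an unadjusted p under 0.05), beside 13.9% and 13.7% of all genes, whereas DESeq2 gave 2 higher and 3 lower, and removal of 10% of the free RNA profile left 3 lower.

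The second list holds 8 adaptor proteins that carry the signal from receptor to RAS. VE was lower than AE at 1, beside 7.07% of all genes, the docking protein GAB1 (-1.34 ± 0.29, adjusted p = 0.00385), and with edgeR 0 of 8 passed between the stromal ranges (0 and 2 at an unadjusted p under 0.05 in Epi and in LUM against MES, and 0 and 1 with DESeq2). CM was higher at 2 and lower at 1 of 8 (5 changed with the block), beside 19.3% and 20.7% of all genes, with SHC1 lower (-1.25 ± 0.14, adjusted p = 8.57e-07). Endothelium was higher at 4 and lower at 1 (24.9% and 28.0% of all genes), PFE lower at 4 (13.7%) and blood higher at 3 and lower at 5 (27.6% and 37.2%; 1 higher with library totals, 2 higher and 3 lower without cycling cells). Mk was higher than Ery at 3 and lower at 2 (28.9% and 22.5%), and the 2 became 0 with library totals, with free RNA removed, without cycling cells and with DESeq2.

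The third list holds 12 heparan sulphate co-factors, among them syndecans, sulphotransferases and the sulphatases SULF1 and SULF2, which remove sulphate from heparan chains. Endothelium was lower than stroma at 8 of 12 and higher at 3, beside 28.0% and 24.9% of all genes. The syndecan SDC2 had 0.581 and 1.44 CPM in AE and 0.501 and 1.44 CPM in VE, against 69.8 and 66.5 CPM in Epi and 85.5 and 59.7 CPM in MES (-6.09 ± 0.37, adjusted p = 9.56e-11; -7.04 in 32.7 and -5.37 in 33.10 alone). SULF1 was highest in MES, at 300 and 143 CPM, and lower in CM (3.71 and 3.74 CPM), with a log2 fold change of -4.88 ± 0.45 against stroma (adjusted p = 8.81e-08). CM was lower at 6 and higher at 1 (20.7% and 19.3% of all genes), and VE lower than AE at 3 (7.07%), of which ANOS1, the secreted anosmin that binds FGFR1, fell most (-2.16 ± 0.32, adjusted p = 1.09e-04). Epi was higher than MES at 2 and lower at 2 (1.28% and 1.95%; 0 and 1 with free RNA removed), and LUM higher at 1 and lower at 3 (3.47% and 3.54%; 1 and 1 with free RNA removed). In PFE 5 were higher and 3 lower (13.9% and 13.7% of all genes), with SDC1 at 13.4 and 9.87 CPM (3.74 ± 0.44, adjusted p = 2.94e-06). Blood was lower at 8 and higher at 1 (37.2% and 27.6%). HS6ST2, a sulphotransferase, was lower in Mk (7.39 and 15.1 CPM) than in Ery (122 and 211 CPM), by -4.19 ± 0.45 (adjusted p = 4.04e-07), while 6 of the list were higher in Mk (28.9% of all genes).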

How the data were processed

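Single-cell suspensions of 2 BG-HFOs were sequenced by the authors with droplet 3' chemistry. Per the labels, Cell Ranger and GRCh38 were used, and the deposited values are raw UMI counts per gene and barcode, intronic reads included. They precede the depth equalization and free RNA correction described in the study's methods, so RNA from other cells can remain in them. FGF5, FGF14, FGFR1 and FGFBP2 overlap another gene on the same strand (GENCODE 44), where shared reads cannot be assigned.

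Cells with 50 to 11000 genes and under 30% mitochondrial UMIs were kept, as in the study. A cell entered a class when the summed UMIs of a lineage list reached 10 to 40 (15 endothelial, 40 CM, 20 PFE and Mk, 10 others). These had to come from at least 3 genes and exceed every other list except that of HPC 3-fold, after scaling to each gate. The HPC list had to exceed every other list 1.5-fold. A cell whose HPC list was higher by less than 1.5-fold could thus enter another class. AE and VE needed 5 UMIs and a 2-fold excess of their list; Epi and LUM needed 5 UMIs and 20% of stromal UMIs, and MES needed 20 stromal UMIs with under 10% of either. These counts were set over several trials on the list sums alone. The members and lists were chosen with earlier results of these data known. In the 2 libraries 100 barcodes were shared (0.593% and 0.501%). Doublets stayed in; Scrublet at its own threshold marked 0 cells in organoid 32.7 and 20.6% in 33.10, so an alternative removed the 13.4% and 16.2% with the highest scores.

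UMIs were summed per class and organoid and tested in edgeR 4.0.16 (R 4.3.3) with TMM scaling, filterByExpr and the quasi-likelihood test, with all 12 classes in 1 fit and Benjamini-Hochberg adjustment over 21088 genes (threshold 0.05). The script was tested on simulated data. Sums of the same organoid are paired by construction: over 7840 genes, the deviations of the organoids correlated between classes with r from 0.0464 to 0.600 (median 0.266). Nothing in the labels gives the number of differentiations behind the 2 organoids. Shares of cells were repeated after thinning to 5000 UMIs. Limits for a count of 0 are 3 UMIs of the class total and cover counting error only. Alternatives were the organoid as a block, library totals, no filter, doubled gates, gates per 10000 UMIs, no predicted doublets, 10% of the free RNA profile removed, no cycling cells, DESeq2 1.42.0 and each organoid alone; the PFE entry count of 30 and the levels without the top cell were added after the data were seen. For the setting with 10% of the free RNA profile removed, 10% of the UMIs of each class were subtracted. They were spread over genes in the proportions of the summed UMIs of all kept cells of that organoid. That sum stands in for free RNA, which was not measured. All members were named, and of each pathway list up to 3 of the genes with the largest change past the threshold.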

Additional observations from a re-analysis of the deposited data

How the results depend on the processing

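Of the 68 calls of members past the threshold, 68 stayed past it in the same direction with the organoid as a block, 66 without the low-count filter, 65 with DESeq2, 65 with gates per 10000 UMIs, 63 with library totals in place of TMM and 59 with 10% of the free RNA profile removed. Of the 59 that could be fitted, 57 stayed with doubled gates, 54 without predicted doublets and 51 without cycling cells. In these settings PFE, with 7 of the 68 calls, had under 20 cells in organoid 33.10 and was not fitted. Without cycling cells Neu too had under 20 cells there and left the blood mean. The other missing calls were of members that no longer passed the low-count filter, which left 19, 20 and 19 members in place of 22. The block changed no call of a member other than those given for KL, FGF1, FGF10, FGF11, FGF14 and FGF23; FGF14 in endothelium against stroma went from an adjusted p of 0.0562 to 0.0316. In Epi vs MES, 681 genes passed, 1196 with the replicate block, 1555 without the filter and 287 with free RNA removed; of the members, 2 passed, and 6 without the filter, 1 without cycling cells and 0 with free RNA removed (edgeR; 4 at an unadjusted p under 0.05). In LUM vs MES, 1478 genes passed, 2739 with the block, 2404 without the filter and 903 with free RNA removed; of the members, 1 passed, and 4 with the block, 4 without the filter, 2 with doubled gates, 2 without cycling cells and 2 with DESeq2. In blood, 9 members passed with free RNA removed and 9 without cycling cells, and in Mk against Ery 8 without predicted doublets. The sign turned for FGF2 (0.32) and FGF11 (0.037) in blood without cycling cells, and for FGFR1 in Mk against Ery (-0.25) without predicted doublets; the cause was not tested. Leaving out either organoid leaves values with no test. Of 384 pairs of member and class, 62 had a mean of 10 CPM or more, 56 with free RNA removed, 53 of 352 with doubled gates, and 61 to 65 in either organoid alone. Library totals moved the median of all genes from -0.15 to -0.38 in blood, from 0.22 to 0.57 in Mk against Ery and from -0.02 to -0.15 in CM. Classes under 50 cells in an organoid (PFE, Neu and HPC) limit the precision of low members.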
